A study of Mus musculus with 9 samples.

Results

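The cytosolic ribosomal protein genes encode the protein parts of the ribosome that translates nuclear messenger RNAs. They were taken here as the genes whose official symbol begins with Rpl, Rps or Rplp followed by a number (with a closing a or x allowed) and that had at least 1 probe set annotated to that symbol alone. Each gene was followed on its brightest such probe set, by the mean of all 9 arrays. This gave 41 genes of the 18193 genes on the array, 22 of the large subunit and 19 of the small subunit. Their values passed the detection filter (log2 4 or more on 3 or more arrays) for 40 of them, all but Rps16, whose probe set lay at the lowest value of the table, 2.27, on all 9 arrays. RefSeq lists 75 protein-coding mouse symbols of this form, and 34 of them had no probe set of their own symbol alone and so no member.

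The samples were thymus cells of female C57BL/6J mice aged 6 to 8 weeks from which CD45-bearing cells had been removed with magnetic beads, and they formed 3 groups of 3 arrays: untreated animals, and animals 4 or 7 days after SL-TBI, a total body irradiation of 550 cGy from a cesium source without hematopoietic rescue. Cells of several mice, which the protocol calls ECs without explaining the term, were pooled for each sample, and the labels do not say that the 3 samples of a group were separate pools. The p-values then rest on the spread among these samples only, and that spread may be technical. RNA was read on Affymetrix Mouse Genome 430 2.0 arrays, on which a probe set is a group of short probes near the 3-prime end of a transcript. All values below are log2 values after GCRMA, or differences between them.

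A ribosome has a small subunit, which decodes the messenger RNA, and a large subunit, which joins the amino acids, and each ribosomal protein is present once per ribosome except for the acidic stalk proteins. Cells make these proteins in matched amounts, mainly by adjusting translation: most ribosomal protein mRNAs begin with a C followed by a run of pyrimidines, the 5-prime terminal oligopyrimidine tract, and their translation follows the TOR kinase. The mRNAs are abundant and long-lived, and some of the proteins, such as Rpl11, bind the p53 inhibitor MDM2 when ribosome assembly is disturbed.

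The start regions of 10 members are shown because they hold, or lack, a pyrimidine run near the annotated start in genes that did and did not change at day 4. Each is 41 bases of the RefSeq promoter table (GRCm38.p6), 5-prime to 3-prime on the gene's strand, with the annotated start at base 21. Capitals mark a run of at least 8 pyrimidines. Such a run need not be the tract at the mRNA's 5-prime end: in Rpl4 it lies before the annotated start and in Rpl13a after it. A region without a run does not show that the mRNA lacks the tract. The first 4 genes were higher at day 4 and have such a run, the next 3 changed at day 4 and have none, and the last 3 have a run and were not called at day 4.
Rpl35 (chr2:39005111-39005151, minus strand): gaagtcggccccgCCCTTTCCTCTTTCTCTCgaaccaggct
Rpl38 (chr11:114668560-114668600, plus strand): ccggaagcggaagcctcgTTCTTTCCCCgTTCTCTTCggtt
Rps6 (chr4:86857347-86857387, minus strand): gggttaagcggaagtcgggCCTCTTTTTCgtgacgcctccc
Rps18 (chr17:33955645-33955685, minus strand): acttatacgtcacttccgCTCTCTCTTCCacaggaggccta
Rpl37 (chr15:5116593-5116633, plus strand): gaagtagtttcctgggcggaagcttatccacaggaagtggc
Rpl37a (chr1:72711240-72711280, plus strand): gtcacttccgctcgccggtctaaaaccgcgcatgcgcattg
Rplp0 (chr5:115559447-115559487, plus strand): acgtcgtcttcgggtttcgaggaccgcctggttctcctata
Rplp2 (chr7:141447631-141447671, plus strand): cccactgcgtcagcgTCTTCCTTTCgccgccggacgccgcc
Rpl4 (chr9:64173367-64173407, plus strand): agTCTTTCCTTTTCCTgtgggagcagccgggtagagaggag
Rpl13a (chr7:45128725-45128765, minus strand): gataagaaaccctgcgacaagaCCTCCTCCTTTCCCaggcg

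The table held 42 start regions for 36 of the 41 members. A run of at least 8 pyrimidines lay between 20 bases before and 20 after the start in 19 of the 42 regions (45.2%), against 16.5% of all 32851 regions in the table. A run covered the annotated start base itself in 12 of the 42 regions (28.6%) and in 3.86% of all regions. The large subunit had a run in 11 of 20 genes and the small subunit in 8 of 16. Over the whole 300 bases from 250 before to 50 after the start, the letters CGGAAG, the core of sites bound by ETS factors such as GABP, were found on either strand in 61.9% of member regions and 16.9% of all regions, and the palindrome-like TCTCGCGA in 21.4% and 0.995%. Some of these motifs lie beside the pyrimidine run, as in Rpl38 and Rps6 above, where cggaag precedes it. Among members tested, a pyrimidine run was found in 4 of the 9 genes called at day 4 that have a region, and in 15 of the 26 not called. These matches are letters in a window and say nothing of binding.

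The cell content of the samples differed strongly between groups. The CD45 gene itself, Ptprc, averaged 12.22 ± 0.25 on the untreated arrays, 4.64 ± 0.53 at day 4 and 9.51 ± 0.22 at day 7 (SD, n = 3), so the untreated and day 7 samples held CD45-bearing cells although they were labelled as depleted of them. The array means of 16 thymocyte markers lay between 9.42 and 9.76 in untreated samples, between 3.58 and 3.93 at day 4, with 10 markers below 4 on all day 4 arrays, and between 7.01 and 7.12 at day 7. Means of 11 cell division genes followed the same order (8.43 to 9.11, 3.75 to 4.04 and 6.98 to 7.20). Those of 11 fibroblast genes ran from 9.72 to 10.32, from 11.21 to 11.76 and from 10.73 to 11.08. Those of 13 epithelial genes stayed between 10.07 and 10.67, but single epithelial genes moved in both directions. At day 4, 7 were called higher and 2 lower (69.2%, against 63.2% of all genes tested), with differences from -1.32 to 1.74. At day 7, 6 were called higher and 4 lower (76.9%, against 54.1%), with differences from -1.97 to 0.85. The 12 endothelial markers averaged between 4.19 and 5.85 on untreated arrays, between 5.31 and 6.04 at day 4 and between 7.38 and 7.55 at day 7, with Tie1 below 4 on every array. Of the erythroid genes tested, 3 of 3 were lower at day 4, with Alas2 at 9.38 ± 1.04 untreated, 2.45 ± 0.19 at day 4 and 4.59 ± 0.43 at day 7 (SD, n = 3). Of 8 macrophage markers, Adgre1, Cd68, C1qa and C1qc lay below 4 on all arrays. The array means ran from 4.49 to 4.97 untreated, from 4.44 to 4.54 at day 4 and from 4.46 to 4.50 at day 7. These near-equal means hide moves in both directions. Of the 4 markers tested, 1 was called higher and 2 lower at each time. Their differences ran from -0.82 to 1.22 at day 4 and from -2.08 to 1.71 at day 7. The difference between the 3-prime and the 5-prime control probe sets of Actb, a measure of RNA degradation, was 2.28 ± 0.15 in untreated samples, 3.13 ± 0.17 at day 4 and 2.51 ± 0.21 at day 7, and that of Gapdh was 0.90 ± 0.13, 1.37 ± 0.24 and 0.90 ± 0.21. The part of cell content and of RNA quality in the differences below was not tested, and in such mixed samples fewer cells of a type and less RNA per cell cannot be told apart.

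Beside this change in cell content, most ribosomal protein genes differed little between groups on the deposited scale. At day 4, 9 of 40 (22.5%) passed the test (limma, Benjamini-Hochberg adjusted p under 0.05 over all 10937 genes tested), against 63.2% of all genes tested and 51.1% of the 235 genes with a mean of at least 12. Of these, 8 were higher (Rpl37, Rps6, Rps19, Rps18, Rpl38, Rpl35, Rpl37a and Rpl22) and 1 was lower (Rplp0). Among all genes tested, 41.8% were higher and 21.4% lower. The size of the difference, whatever its sign, had a median of 0.08 over the members, 0.50 over all genes and 0.26 over the genes with a mean of at least 12. Those genes were not matched to the members by level. The brightest member, Rps29, averaged 15.33, near the highest value of the table, 15.52. Whether signal near that top made differences smaller was not tested. The 95% interval of the difference lay within 0.5 of 0 on either side for 33 of the 40 members, and 32 had a difference smaller than 0.25. The arrays of both groups did not overlap for 18 of the 40 members and for 67.7% of all genes. A change of at least 2-fold was called for 1 member, Rpl37, and for 23.2% of all genes.

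**Figure D1:**
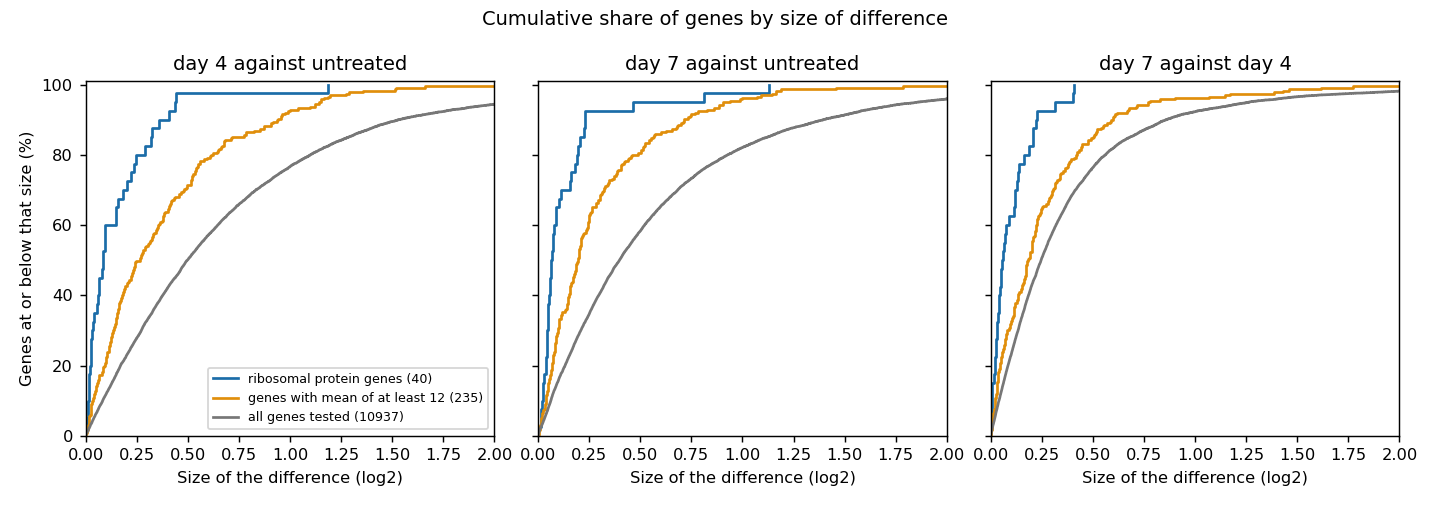
Cumulative share of genes (y axis, %) with a difference at or below the size on the x axis (log2, either direction), for the 40 ribosomal protein genes (blue), the 235 genes with a mean of at least 12 (orange) and all 10937 genes tested (grey), in each comparison. In all 3 panels the blue line rises first: the median size at day 4 was 0.08 for the members against 0.26 and 0.50.

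The subunits moved by similar amounts. The median difference at day 4 was 0.05 over the 22 large subunit genes and 0.04 over the 18 small subunit genes tested, with 5 higher and 1 lower in the large subunit and 3 higher and 0 lower in the small. The gap between the subunits was not tested. The median over all genes was 0.20, so the members' median of 0.05 lay 0.15 below it. On single arrays the median level over members was 13.62, 13.63 and 13.58 in untreated samples, 13.61, 13.59 and 13.66 at day 4, and 13.58, 13.59 and 13.57 at day 7. The large minus small subunit medians were 0.07, 0.05 and -0.01, then 0.07, 0.10 and 0.03, then 0.10, 0.06 and 0.01. The large minus small values overlapped between all 3 groups. The median levels of the untreated arrays overlapped those of day 4, while every day 4 array was above every day 7 array, by as little as 13.595 against 13.594. With each gene first centred on its own mean, the array medians over members were -0.02, 0.02 and -0.08 untreated, 0.03, 0.02 and 0.08 at day 4, and -0.01, -0.01 and -0.02 at day 7, so that all day 4 arrays were above all others, the nearest untreated array being 0.019 against 0.021.

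**Figure D2:**
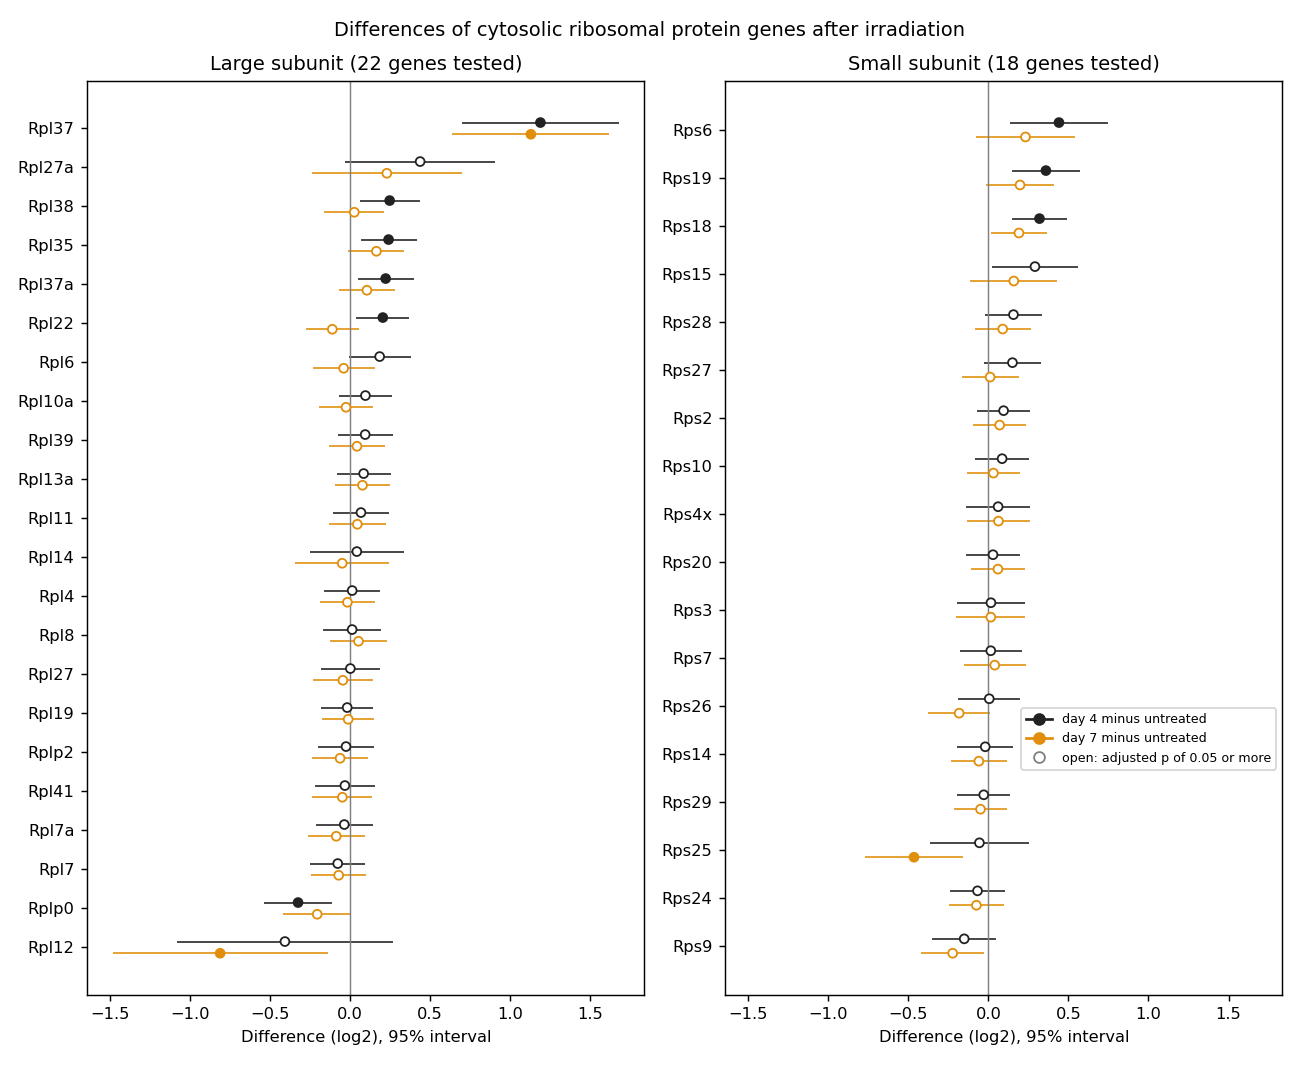
Difference from untreated (x axis, log2, with its 95% interval from the limma fit) for each of the 40 genes tested, by subunit, at day 4 (black) and day 7 (orange). Filled points passed an adjusted p of 0.05. Most points lie within 0.25 of 0, Rpl37 stands at 1.19 and 1.13, and the widest intervals are those of dim probe sets such as Rpl12 and Rpl27a.

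The direction of these small shifts depended on how the arrays were set to a common scale. With each array centred on the median of the genes tested, which moved the day 4 median of all genes from 0.20 to 0.05, 1 member was higher and 4 lower at day 4 and the members' median was -0.09. Centred on the epithelial genes, 1 was higher and 1 lower with a median of -0.18, and the median of all genes was -0.03. Centred on epithelial, fibroblast and endothelial genes together, 0 were higher and 36 lower with a median of -0.80, while 6247 of the 10937 genes were lower and the median of all genes was -0.65. Centring moves every gene by the same amount and so cannot change the gap between members and all genes, which was -0.15. Quantile normalization gave a gap of -0.07, and without a filter on dim genes, many of which lie at the lowest value, it was 0.04.

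Among the large subunit genes called at day 4, Rpl37, a small zinc-binding protein that contacts the ribosomal RNA, had the largest difference. It read 8.61, 8.91 and 7.94 on the untreated arrays, 9.63, 9.66 and 9.73 at day 4, and 9.44, 9.77 and 9.63 at day 7. Every irradiated array was above every untreated array, and untreated replicate 3 was the lowest. The difference was 1.19 ± 0.22 (SE) at day 4, or 2.28-fold (limma adjusted p = 0.0013), and 1.13 ± 0.22 at day 7, or 2.19-fold (limma adjusted p = 0.0024). It was called at day 4 in each of the 9 fits that left out 1 array. Leaving out a day 7 array, as 3 of these 9 fits did, left the day 4 difference unchanged and altered only its estimated spread. The call was lost in 1 of 21 alternatives, the centring on all stromal lists (0.34, limma adjusted p = 0.256). These 21 leave out the brighter probe sets of several symbols, on which its 2-fold rise was not repeated, as given below. Its probe set is the only one that carries this symbol alone, and its suffix, _x_at, marks probes that can match other sequences. Of the probe sets followed for the 41 members, 16 have this suffix.

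Rplp0, the scaffold of the acidic stalk that recruits elongation factors, was the only member lower at day 4. It read 14.25, 14.43 and 14.20 on untreated arrays, 14.04, 13.87 and 14.00 at day 4, and 14.03, 14.14 and 14.09 at day 7. All day 4 and day 7 arrays were below all untreated arrays. The fall at day 4 was -0.33 ± 0.09 (SE; limma adjusted p = 0.0141). The difference at day 7, -0.21, did not pass (limma adjusted p = 0.0925). The day 4 call held under all 4 other scalings and was lost only without day 4 replicate 2 (-0.28, limma adjusted p = 0.0529). Rplp2, its stalk partner, differed by -0.03 at day 4 (95% interval -0.20 to 0.15) and by -0.06 at day 7 (-0.24 to 0.11).

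Rpl22, an RNA-binding protein of the large subunit that developing T cells of the alpha-beta lineage require, was higher at day 4 and lower again at day 7. It read 13.70, 13.73 and 13.66 untreated, 13.88, 13.94 and 13.89 at day 4, and 13.60, 13.58 and 13.58 at day 7. On this brightest probe set the 3 groups did not overlap, and the day 7 arrays were the lowest. The rise at day 4 was 0.20 ± 0.07 (SE; limma adjusted p = 0.0357), and the call was kept in only 1 of the 9 fits without 1 array, that without untreated replicate 2. The fall from day 4 to day 7 was -0.32 ± 0.07 (limma adjusted p = 0.0139) and was called in all 9, but under 3 of the 4 other scalings it was not. Its day 4 rise was not called under any of the 4, and centred on the epithelial genes its difference was -0.02. The dimmer probe sets of Rpl22 differed by -0.19 and -0.29 from day 4 to day 7 and did not pass (limma adjusted p = 0.138 and 0.0761). On the dimmest, day 7 was above untreated by 0.56 (limma adjusted p = 0.0021).

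The other large subunit genes called at day 4 rose by less than 0.25. Rpl38, which in mouse embryos favours translation of some Hox mRNAs, read 13.85, 13.90 and 13.75 untreated, 13.99, 14.13 and 14.11 at day 4, and 13.87, 13.88 and 13.82 at day 7. Rpl35, near the exit of the peptide tunnel, read 14.04, 14.10 and 14.04 untreated, 14.29, 14.31 and 14.30 at day 4, and 14.20, 14.17 and 14.31 at day 7. Rpl37a, a second small zinc-binding protein, read 14.04, 13.97 and 13.96, then 14.17, 14.19 and 14.28, then 14.12, 14.06 and 14.09. In all 3 genes the day 4 arrays were above the untreated arrays. Their probe sets end in _x_at like that of Rpl37, so their probes can match other sequences. The differences were 0.25 ± 0.08 for Rpl38, 0.24 ± 0.08 for Rpl35 and 0.22 ± 0.08 for Rpl37a (SE; limma adjusted p = 0.0269, 0.0227 and 0.0314). Rpl38 and Rpl35 kept their call in 5 of the 9 fits that left out 1 array and Rpl37a in 4. Among the fits without an untreated or day 4 array, Rpl38 kept it only without untreated replicate 2 or day 4 replicate 1. Under the 4 other scalings Rpl38 kept its call in 1, and Rpl35 and Rpl37a in 0. At day 7 their differences were 0.03, 0.16 and 0.10, and none passed. Rpl35 and Rpl37a fall outside the rule for named genes and are given because they complete the called members.

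In the small subunit, Rps19 and Rps18 rose at day 4. Rps19, the gene most often mutated in Diamond-Blackfan anemia, read 12.91, 13.01 and 12.72 untreated, 13.22, 13.18 and 13.32 at day 4, and 13.08, 13.11 and 13.05 at day 7. Rps18, a protein of the subunit's head, read 13.55, 13.64 and 13.54, then 13.89, 13.86 and 13.93, then 13.82, 13.75 and 13.73. For both genes every day 4 and day 7 array was above every untreated array, and every day 4 array was above every day 7 array. The day 4 differences were 0.36 ± 0.09 for Rps19, or 1.28-fold, and 0.32 ± 0.08 for Rps18, or 1.25-fold (SE; limma adjusted p = 0.0091 and 0.0057). Both calls held in all 9 fits without 1 array. Under the other scalings each was kept in 1 of 4, and centred on all stromal lists the differences were -0.49 and -0.53. At day 7 the differences were 0.20 and 0.19 and did not pass (limma adjusted p = 0.106 and 0.0617).

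Rps6, the substrate of the TOR-driven S6 kinases, read 8.68, 8.97 and 8.52 untreated, 8.98, 9.19 and 9.32 at day 4, and 8.93, 8.88 and 9.06 at day 7. The lowest day 4 array was just above the highest untreated array, and the day 7 arrays overlapped the untreated ones. Its probe set was dim, with a mean of 8.95 over the 9 arrays. The day 4 difference was 0.44 ± 0.14 (SE, limma adjusted p = 0.0188), called in 5 of the 9 fits that left out 1 array and under 1 of the 4 other scalings. Among the fits without an untreated or day 4 array, it was called only without untreated replicate 2 or day 4 replicate 1. The day 7 difference was 0.23 and did not pass (limma adjusted p = 0.177).

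**Figure D3:**
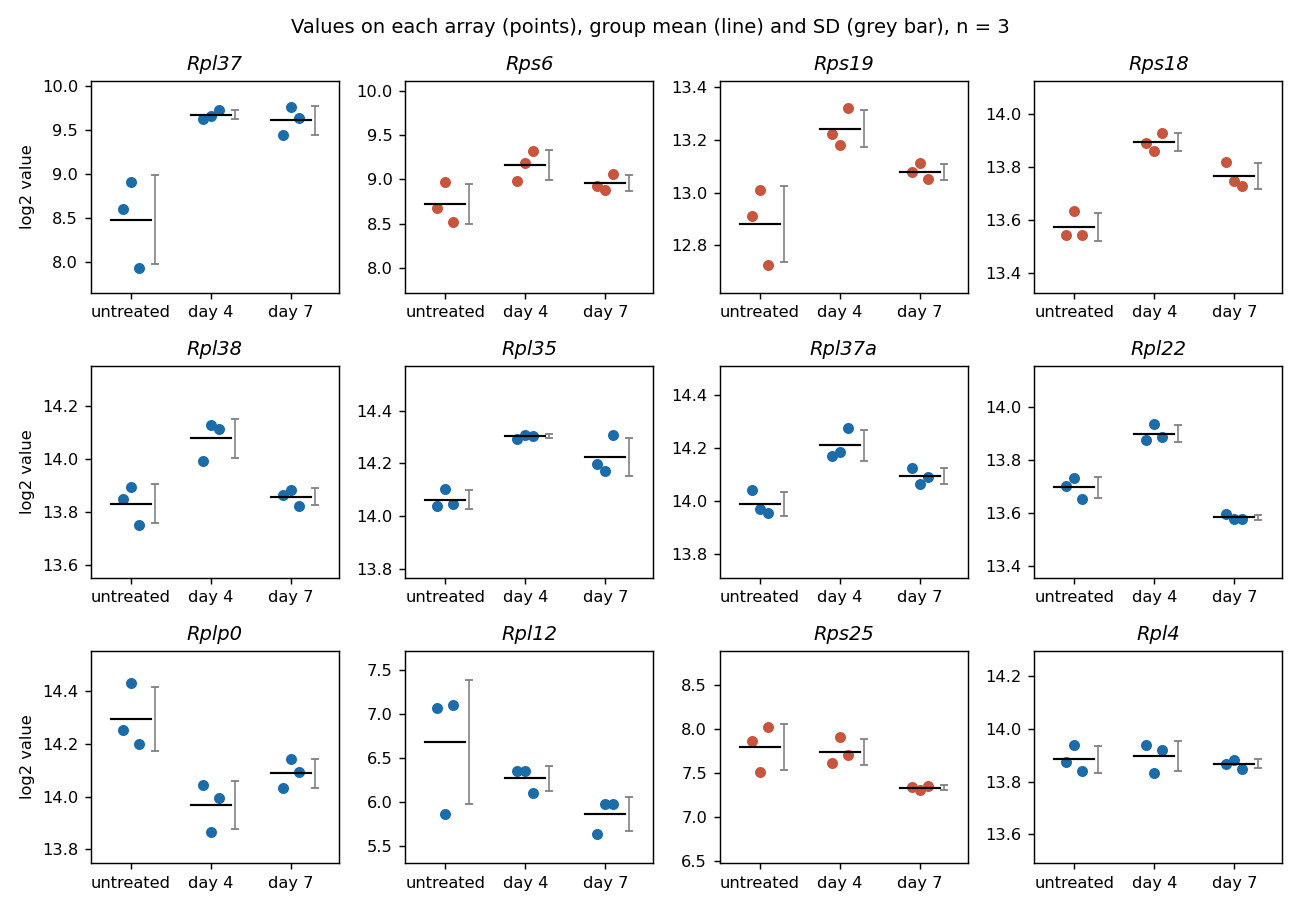
Log2 value on each of the 3 arrays of each group (points), with the group mean (line) and SD (grey bar), for the 11 members called in at least 1 comparison and Rpl4 (blue: large subunit, red: small subunit). The y axes span 2.4 log2 units for Rpl37, Rps6, Rpl12 and Rps25 and 0.8 for the others; Rpl4, not called in any comparison, stays between 13.83 and 13.94.

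On the deposited scale the members' differences from untreated were smaller still at day 7 than at day 4, a gap that was not tested. The order of the counts called did not hold under every other scaling, as given below. Of 40 members, 3 (7.5%) passed, against 54.1% of all genes tested and 37.4% of those with a mean of at least 12: Rpl37 was higher, and Rpl12 and Rps25 were lower, where 32.1% of all genes were higher and 22.0% lower. The median difference was 0.01 over members and 0.09 over all genes, and the median size was 0.07 against 0.40. The interval of 35 members lay within 0.5 of 0. The groups did not overlap for 16 members and for 62.4% of all genes. A 2-fold change was called for 1 member, Rpl37 again, and for 17.7% of all genes. The subunit medians were -0.02 for the large and 0.04 for the small, and this gap was not tested.

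Rps25, which viral and cellular internal ribosome entry sites need, read 7.86, 7.51 and 8.02 untreated, 7.62, 7.91 and 7.71 at day 4, and 7.34, 7.31 and 7.36 at day 7. All day 7 arrays were below all others. The day 7 difference was -0.46 ± 0.14 (SE, limma adjusted p = 0.0182). It was called in 6 of the 9 fits that left out 1 array and lost without untreated replicate 1, untreated replicate 3 or day 7 replicate 2. The fits it was called in include those without a day 4 array, which left this difference unchanged and altered only its estimated spread. Rpl12, at the base of the stalk, read 7.06, 5.86 and 7.10 untreated, 6.35, 6.36 and 6.10 at day 4, and 5.64, 5.98 and 5.98 at day 7. Untreated replicate 2 lay among the day 7 arrays. The day 7 difference was -0.81 ± 0.30 (SE; limma adjusted p = 0.0439), and it passed in only 1 of the 9 fits without 1 array, that without untreated replicate 2.

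From day 4 to day 7 the array means of the thymocyte markers rose but stayed below those of untreated samples. In this comparison 1 of 40 members (2.5%) passed, against 27.3% of all genes tested and 28.9% of those with a mean of at least 12. Among all genes, 9.78% were higher and 17.6% lower. The member that passed, Rpl22, fell by less than 2-fold, a size that 7.17% of all genes passed. The day 7 value was below the day 4 value for 33 members and above it for 7, and among all genes for 6806 and 4129 of 10937. The median difference was -0.05 over members and -0.10 over all genes, and the subunit medians were -0.05 and -0.06. The members' median turned to 0.05 with arrays centred on the median of the genes tested and to 0.29 on the epithelial genes. The arrays did not overlap for 13 members and for 51.7% of all genes. Comparisons with the same group share its arrays, so they are not independent of each other.

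Several members that did not pass at either time on their brightest probe set had narrow intervals there. Rpl4, which lines the peptide exit tunnel, differed by 0.01 at day 4 (95% interval -0.16 to 0.19). Rpl11, the MDM2-binding partner of 5S ribosomal RNA, differed by 0.07 (-0.11 to 0.24). The values for Rpl13a, which in activated myeloid cells can leave the ribosome to silence inflammatory mRNAs, were 0.08 (-0.09 to 0.25). Rpl41, the smallest protein of the large subunit, differed by -0.03 (-0.22 to 0.15) on its brightest probe set. Rpl39, which lies in the exit tunnel, was read by a dim probe set that averaged 5.85 and gave the same value, 5.85, on 5 of the 9 arrays, so its difference of 0.09 does not show whether the gene changed. In the small subunit, Rps3, at the entry of the mRNA channel, differed by 0.02 (-0.20 to 0.23), Rps14, whose loss causes the anemia of the 5q- syndrome in humans, by -0.02 (-0.19 to 0.15), and Rps4x, encoded on the X chromosome, by 0.06 (-0.14 to 0.26). Leaving out Rpl39, these intervals lie within a 2-fold change at day 4 for the brightest probe set on the deposited scale. Dimmer probe sets of Rpl41 fell by more than 2-fold, as given below. A dimmer probe set of Rps3, averaging 8.06, rose by 0.33 at day 4 and was called (limma adjusted p = 0.0393). At day 7 it was higher by 0.31 and did not pass (limma adjusted p = 0.0580). A dimmer probe set of Rpl13a was also called at day 4 (-0.62, limma adjusted p = 0.0016). On their brightest probe sets the differences of Rpl4 and Rps3 became -0.83 with centring on all stromal lists. Of the members not called on their brightest probe set, Rps9 was the nearest to a call on the lower side, and its dimmer probe sets are given below. On the brightest it read 13.61, 13.60 and 13.64 untreated, 13.48, 13.44 and 13.48 at day 4, and 13.26, 13.40 and 13.52 at day 7. All irradiated arrays were below all untreated ones, with differences of -0.15 at day 4 and -0.22 at day 7 (limma adjusted p = 0.160 and 0.0566).

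The level of a probe set went with how far it moved. Members fell apart into 32 with a mean of at least 12 and 9 with a mean under 10, none lying between. Of the 32, 6 were higher and 1 lower at day 4 and 0 passed at day 7 (limma). Their differences ran from -0.33 to 0.36 at day 4 and from -0.22 to 0.20 at day 7. The 8 dimmer members that were tested ran from -0.41 to 1.19 and from -0.81 to 1.13, and all 3 calls at day 7 (Rpl37, Rpl12 and Rps25) were among them. Each of the 9 dimmer members also had a brighter probe set annotated to several symbols, exactly 1 of which matched the rule. On those 9 brighter probe sets the day 4 differences ran from -0.05 to 0.33 with 3 called, and the day 7 differences from -0.02 to 0.20 with 0 called (limma). No gene is named from a probe set of several symbols, but the 2-fold rise of Rpl37 and the day 7 falls of Rpl12 and Rps25 were not repeated on the brighter probe sets. None of these brighter probe sets rose at day 4 by as much as the 0.44 of Rps6, another dimmer member. With all such probe sets added, 68 symbols could be followed: 17 were higher and 1 lower at day 4, with a median of 0.08, and 0 were called at day 7. Of the 17, 14 were among 44 large subunit symbols and 3 among 24 small subunit symbols.

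Probe sets of the same gene disagreed in the same way. In a fit across all single-symbol probe sets, the 61 passing probe sets of members with a mean of at least 12 had a median size of difference of 0.09 at day 4, with 10 higher and 1 lower, and the 19 below 12 had 0.33, with 4 higher and 4 lower. The gap between probe sets was widest for Rpl41, with differences of -0.03 and 0.12 on its brighter pair of probe sets and -1.10 and -1.12 on its dimmer pair. Rps9 had -0.15 and -0.13 on its brighter probe sets and -1.09 on the dim one, which averaged 4.59 and was called (limma adjusted p = 0.0265). At day 7 the same probe sets gave -0.22, -0.26 and -1.44 (limma adjusted p = 0.0649, 0.0450 and 0.0094). For Rpl13a the values were 0.08, 0.07, -0.62 and -0.16, and the -0.62 was called (limma adjusted p = 0.0016). On that probe set the day 7 difference of Rpl13a was -0.36 (limma adjusted p = 0.0276). Rpl22 showed 0.20 and 0.16 on its brighter probe sets and 0.85 on the dimmest, so there the dim probe set moved up. The rule kept the brightest probe set in each case.

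**Figure D4:**
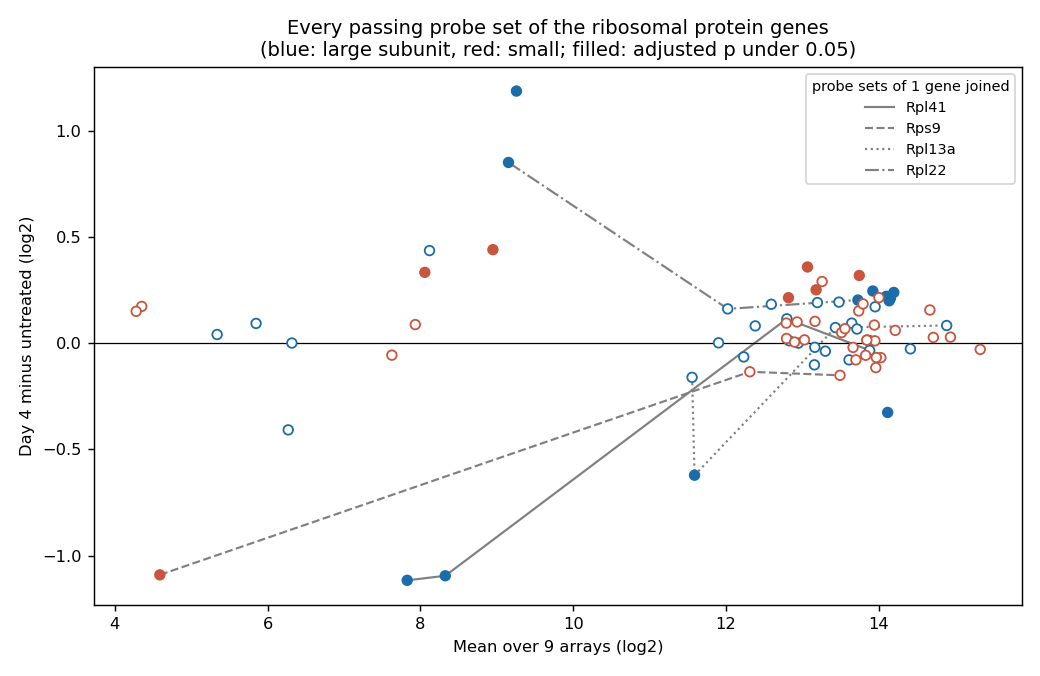
Day 4 minus untreated (y axis, log2) against the mean over 9 arrays (x axis, log2) for the 80 single-symbol probe sets of members that passed the filter (blue: large subunit, red: small subunit; filled: limma adjusted p under 0.05). Grey lines join the probe sets of 1 gene for Rpl41, Rps9, Rpl13a and Rpl22; the 61 probe sets at 12 or above lie between -0.33 and 0.36, and those below spread from -1.12 to 1.19.

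Ribosomal proteins whose symbols fall outside the rule, and paralogs of members, were followed in the same fit. Rpsa and Rps3a1, core proteins of the small subunit, differed by -0.09 and -0.06 at day 4 and did not pass. Fau, whose product is a ubiquitin-like protein fused to the small subunit protein S30, rose by 0.23 at day 4 (limma adjusted p = 0.0393) and was lower at day 7 than at day 4 by -0.31 (limma adjusted p = 0.0255). Of 4 paralogs tested, 3 were higher at day 4. Rps27l, a paralog of Rps27 and a transcriptional target of p53, averaged 11.33 ± 0.11 untreated, 12.07 ± 0.04 at day 4 and 11.89 ± 0.10 at day 7 (SD, n = 3), a rise of 0.74 at day 4 and 0.56 at day 7 (limma adjusted p = 0.00014 and 0.0011). Rps4l averaged 9.17 ± 0.22, 9.93 ± 0.05 and 9.99 ± 0.05, a rise of 0.76 and 0.82 (limma adjusted p = 0.00037 and 0.00042). Rpl22l1, the paralog of Rpl22, rose by 0.41 at day 4 (limma adjusted p = 0.0014), and its 0.18 at day 7 did not pass. Rpl7l1 differed by 0.16 and did not pass, and Rpl39l and Rpl3l, known mainly from testis and muscle, lay below 4 on all arrays.

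Genes that build ribosomes or help them translate had calls in both directions at day 4, in shares that were not tested against the members. The shares lay below the 63.2% of all genes for ribosome biogenesis (47.4%), RNA polymerase I (38.5%) and initiation factors (36.7%). They lay above it for TOR and MYC regulation (64.7%) and elongation factors (71.4%). Of 57 ribosome biogenesis genes, 9 were higher and 18 lower at day 4 (median -0.14); Wdr12, a factor of 60S maturation, fell by 1.28 and Nolc1, a nucleolar phosphoprotein, by 1.07. At day 7 against day 4, 9 of the 57 were higher and 1 lower (17.5% called, against 27.3% of all genes). Of 13 RNA polymerase I genes, 1 was higher and 4 lower at day 4 (median -0.11), among them Taf1c (-1.22) and Twistnb (-1.28). Of 17 genes of TOR and MYC regulation, 4 were higher and 7 lower (median -0.13), with Ddit4, an inhibitor of TOR, at -0.99, and Mycn, which averaged 5.51 ± 0.35 untreated, below 4 on all day 4 arrays. These medians lie further below the 0.20 of all genes than the members' median of 0.05 does.

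Of 30 initiation factor genes, 3 were higher and 8 lower at day 4 (median -0.07), among them Eif4ebp2, a repressor of cap-dependent initiation (-1.46), and Eif4a1, the RNA helicase of initiation (-0.72). Of 7 elongation factor genes, 3 were higher and 2 lower (median 0.06), the lower ones being Eif5a (-0.52) and Eef1e1 (-1.16), the latter an accessory protein of aminoacyl-tRNA synthetases. Of 15 other mRNAs known or listed as having a pyrimidine tract, some of which are also elongation or initiation factors, 5 were higher and 4 lower (median 0.02). These include Hnrnpa1 (-1.25) and Nap1l1 (-1.08), and the share called was 60.0%, near the 63.2% of all genes. The 76 mitochondrial ribosomal protein genes, which serve the separate ribosome of the mitochondrion, had 19 higher and 3 lower at day 4 (median 0.13) and 19 higher and 1 lower at day 7 (median 0.15), among them Mrps24 (0.55 at day 4) and Mrpl17 (0.66). In that list 28.9% were called at day 4, also a lower share than the 63.2% of all genes, and 26.3% at day 7, against 54.1%.

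**Figure D5:**
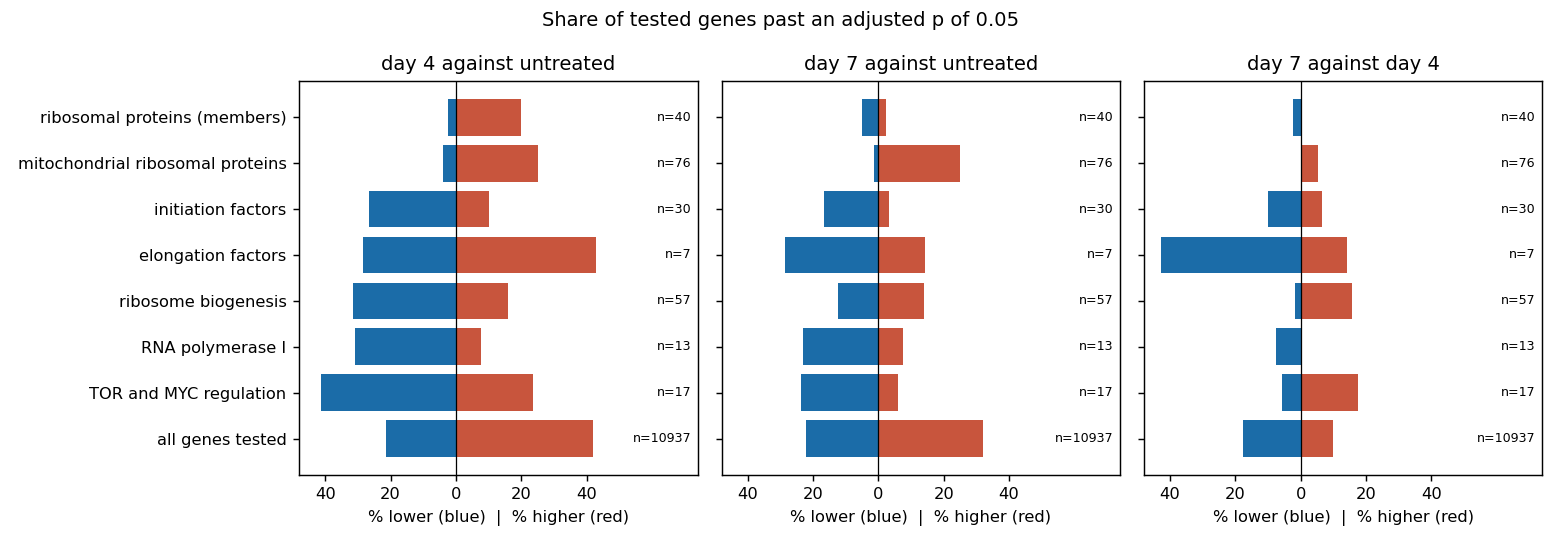
Percent of tested genes that passed a limma adjusted p of 0.05, higher (red, to the right) or lower (blue, to the left), for the ribosomal protein genes and other lists of the translation apparatus in each comparison; n is the number of genes tested. The members had 22.5%, 7.5% and 2.5% called, against 63.2%, 54.1% and 27.3% of all genes in the lowest bars.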

How the data were processed

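Each of 9 samples was hybridised to 1 Affymetrix Mouse Genome 430 2.0 array. The deposited values are log2 values per probe set; the log base was inferred from their range of 2.27 to 15.52. Per the submitters' processing notes they were made with GCRMA, which adjusts each probe for background from its sequence, scales arrays together and reduces probes to 1 value a probe set, with version and settings not given in the sources used here. GCRMA assumes that most genes keep their level, so a change shared by most genes would be removed.

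Of 45101 probe sets, 34945 carried 1 symbol. The brightest per gene was kept and 10937 genes were tested. All 9 arrays entered 1 model with the group as its term (limma 3.58.1, R 4.3.3), with Benjamini-Hochberg adjustment over all genes tested and a threshold of 0.05; the script was tested on simulated data. Error bars are SD over 3 arrays or SE of the fit. With 3 arrays a group, their number limits the precision.

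The members and lists were chosen with earlier results of these data known. Named members are a list of familiar genes, the 5 largest rises and falls called in each comparison and the 3 with the widest gap between probe sets; of the familiar genes Rplp1, Rpl3, Rpl5, Rpl10, Rps27a and Rps15a had no probe set of their symbol alone. Outside the members, all paralogs with a probe set and up to 2 genes per list with the smallest adjusted p at day 4 are named. The alternatives were other filters, probe set choices, scalings, variance models, a replicate block and leaving out each array.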

Additional observations from a re-analysis of the deposited data

How the results depend on the processing

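The counts of members called moved with most choices. The call of Rpl37 at day 4 and day 7 and that of Rplp0 at day 4 were each kept in 20 of 21 alternatives. These 21 leave out the probe sets of several symbols. With those, the largest day 4 difference among large subunit symbols was 0.31, and 0 were called at day 7. At day 4 (8 higher, 1 lower), 14 were higher without a filter, 5 without probe sets ending in _x_at or _s_at, 5 under quantile normalization, 5 with only the 2 groups in the fit, and 1, 1 and 0 with arrays centred on the kept genes' median, the epithelial and all stromal lists. Taking the mean of a gene's probe sets gave 3 lower; the lower count was 3 without _x_at and _s_at, 2 with array weights, 2 under quantile normalization, and 4 and 36 with the kept genes' median and the stromal lists. The day 4 median of 0.05 became 0.0064 under quantile normalization and -0.0933, -0.1764 and -0.7957 under the 3 centrings. At day 7 (1 higher, 2 lower), 3 were higher without a filter, 4 higher and 5 lower with an intensity trend, 5 and 4 with array weights, 2 and 7 under quantile normalization, 5 lower centred on the median, 0 lower on the epithelial list, 0 higher and 39 lower on the stromal lists (8824 of all 10937 genes were lower there), and 1 lower with only the 2 groups; the median was -0.0432, -0.0289, 0.1267 and -1.1031 under the 4 scalings. At day 7 against day 4 (1 lower), 3 were lower without a filter, 2 at a level of 6, 1 higher and 2 lower with the mean of probe sets, 1 higher and 0 lower without _x_at and _s_at, 4 lower with an intensity trend, 3 with array weights, 2 under quantile normalization, 0 and 0 centred on the median and the epithelial list, and 3 with only the 2 groups; the median was 0.0497, 0.2884 and -0.3220 under the centrings and -0.0906 without _x_at and _s_at. With probe sets of several symbols, a choice added after seeing the data, 17 were higher at day 4, 0 were higher and 0 lower at day 7, and 3 were lower at day 7 against day 4; with only members of at least 12, also added then, 0 and 0 were called at day 7. The large minus small median difference was -0.0285 with the mean of probe sets, -0.0229 under quantile normalization, 0.0709 with several symbols and -0.0167 with members of at least 12 at day 4, -0.0282 and -0.0311 without _x_at and _s_at and with several symbols at day 7, and 0.0724 and -0.0356 for the same choices at day 7 against day 4. The cause of these changes was not tested beyond what each choice itself does.

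Leaving out 1 array gave 3 to 10 higher and 0 to 2 lower at day 4 (3 without day 4 replicate 2 or 3, 4 without untreated replicate 1 or 3, 10 without untreated replicate 2), with a median of 0.0376 to 0.0901 and a large minus small difference of -0.0337 to 0.0154. It gave 1 to 4 higher and 0 to 2 lower at day 7 (median -0.01 to 0.04, large minus small -0.06 to -0.04), and 0 higher and 1 to 3 lower at day 7 against day 4 (median -0.07 to -0.04, large minus small -0.01 to 0.02). With the replicate block, 4 members were higher and 1 lower at day 4 and 1 was lower at day 7. Deviations from the group means correlated between -0.118 and 0.183 for same-numbered arrays and between -0.289 and 0.215 for the others. These values show no pairing by number, but with 3 arrays a group they cannot exclude one. Centred on the stromal lists, day 4 differences turned to -0.8345 for Rpl4, -0.7797 for Rpl11, -0.7630 for Rpl13a, -0.6430 for Rpl22, -0.6005 for Rpl38, -0.7533 for Rpl39, -0.8307 for Rps3, -0.4057 for Rps6, -0.4873 for Rps19, -0.7860 for Rps4x, -0.5274 for Rps18, -0.6073 for Rpl35 and -0.6255 for Rpl37a. At day 7 they turned to -1.0717 for Rpl11, -1.0394 for Rpl13a, -1.0906 for Rpl38, -1.0738 for Rpl39, -1.1010 for Rps3, -0.8842 for Rps6, -0.9183 for Rps19, -1.0530 for Rps4x, -0.9252 for Rps18, -0.9526 for Rpl35 and -1.0120 for Rpl37a. Centred on the epithelial list, Rpl22 turned to -0.0237 and Rpl37a to -0.0062 at day 4, and Rpl22 to 0.0255 at day 7 against day 4. Rpl41 at day 7 against day 4 turned to 0.3024 with the mean of its probe sets and 0.7440 without _x_at and _s_at.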
